A study of Mus musculus with 4 samples.

Results

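The genes described here are 6 inhibitors of cyclin-dependent kinases (CDKs) and 4 cyclins of the G1 phase of the cell cycle, 10 of the 23377 genes in the deposited count table. They were chosen by symbol: Cdkn1a, Cdkn1b and Cdkn1c of the Cip/Kip family, Cdkn2a, Cdkn2b and Cdkn2c of the INK4 family, the D cyclins Ccnd1, Ccnd2 and Ccnd3, and the E cyclin Ccne1. All 10 were found in the table. The study sequenced the polyadenylated RNA of cancer-associated fibroblasts (CAFs) from mouse, which are fibroblasts that live inside tumours, in 4 libraries. Its title concerns lactate secreted by tumour cells and adaptive resistance when MET or EGFR is targeted. Resistant tumour CAFs (2 libraries, titled RES4) were labelled as associated with a resistant tumour, and normal tumour CAFs (2 libraries, titled WTA) as associated with a normal tumour. The labels give no strain, genotype, age, treatment or time for either group, and they do not say whether the 2 libraries of a group came from separate animals or cultures. The p-values therefore reflect the spread among these 4 libraries alone, part of which may be technical, and each group may come from 1 tumour.

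The G1 cyclins activate the kinases that let a cell leave G1. D cyclins respond to growth factors and pair with CDK4 and CDK6, cyclin E pairs with CDK2, and both kinds of kinase phosphorylate the retinoblastoma family, which then releases E2F transcription factors for S phase. INK4 proteins bind CDK4 and CDK6 alone and keep them from D cyclins, whereas Cip/Kip proteins bind cyclin-CDK complexes and chiefly restrain CDK2. In fibroblasts, Cdkn2a, Cdkn2b and Cdkn1a are known for their part in the arrest of senescent or stressed cells, and Cdkn1a is a classical target of p53.

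The libraries held 2785936 to 5558541 reads, and 12001 genes passed the filter on low counts. The label was checked against cell type markers. Of 10 tested fibroblast markers 9 were higher in resistant tumour CAFs, where the 11 markers in the table summed to 8319 and 7752 CPM (reads brought to one library size) in replicates 1 and 2, against 3719 and 3095 CPM in normal tumour CAFs. Col1a1 stood at 965 CPM or more in every library, but the fibroblast marker Dcn had only 3 and 1 reads in the normal libraries, and Lum had none there. The 10 Schwann cell and neural crest markers summed to 248 and 269 CPM in resistant and 1330 and 1177 CPM in normal tumour CAFs, with 6 of 7 tested lower and 1 higher in resistant tumour CAFs. The higher one was Pmp22 (238 and 259 against 136 and 123 CPM, 0.94 ± 0.26, edgeR adjusted p = 0.0150), and without it the sums were 9.89 and 9.91 against 1194 and 1054 CPM. Foxd3 and Sox2 were without a read in resistant tumour CAFs. The 7 epithelial markers summed to 45.7 and 63.9 against 9.66 and 9.26 CPM. Krt19 made up most of it and was the 1 tested and called (120 and 174 against 26 and 38 reads, 3.09 ± 0.44, edgeR adjusted p = 2.20e-04), Krt14 had 0 and 0 against 12 and 15 reads, and the defining markers Epcam and Cdh1 had no read in any library. The 7 immune markers in the table summed to 6.06 to 10.6 CPM in the 4 libraries, from Cd68 and Csf1r for the most part, neither of which was called, and Ptprc and Cd3e had no read in any library. Endothelial markers summed to 1.47 to 2.66 CPM. Mural cell markers summed to 40.0 and 25.3 CPM in resistant and 289.6 and 202 CPM in normal tumour CAFs, with Rgs5 called higher and Cspg4 called lower of 4 tested. Cspg4 made up most of the normal sums (19.8 and 12.8 CPM in resistant against 281 and 193 CPM). Rgs5 stood at 4.57 and 3.30 against 0.248 and 0.505 CPM. Of the tested genes not called, Notch3 was higher in resistant tumour CAFs (14.5 and 5.14 against 2.97 and 3.70 CPM) and Des lower (0.761 and 3.67 against 4.71 and 4.38 CPM). In bulk RNA, fewer cells of a type and less RNA per cell cannot be told apart. The part of these marker differences in the results below was not tested, and the labels describe both a TruSeq kit and a SMART-seq2 protocol without saying which libraries were made with which.

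Of the 10 genes, 9 could be tested and 4 passed the test, edgeR's quasi-likelihood test with Benjamini-Hochberg adjustment over all tested genes. Cdkn2a and Cdkn2b rose in resistant tumour CAFs, Cdkn1a and Ccne1 fell, and the D cyclins did not pass. Across all genes tested, 29.4% passed in either direction, 15.5% higher and 13.9% lower, so 4 of 9 is read as a description of these genes only. The windows of 250 bases before the annotated starts of the 4 genes that passed are shown first, because 2 of these genes are neighbours and 2 have more than 1 start, which a count per gene symbol merges. In GENCODE M21, exons of 5 of the 10 genes (Cdkn1a, Cdkn1c, Ccnd1, Ccnd2 and Ccnd3) overlap a gene on the other strand; no use of strand in the counting is stated, so reads of such partners cannot be told apart. The windows come from RefSeq (GRCm38.p6, whereas the counts were made on mm9), where 7 of the 10 genes had a match, in 11 windows. Capitals mark matches on either strand to a GC box (GGGCGG), an E2F site (TTTCCCGC, TTTCGCGC, TTTGCCGC or TTTGGCGC), a cyclic AMP response element (TGACGTCA), a TATA box (TATAAA) or a p53 half-site. These motifs were chosen after the windows had been read.
Cdkn2a, start 1, chr4:89294620-89294869, minus strand: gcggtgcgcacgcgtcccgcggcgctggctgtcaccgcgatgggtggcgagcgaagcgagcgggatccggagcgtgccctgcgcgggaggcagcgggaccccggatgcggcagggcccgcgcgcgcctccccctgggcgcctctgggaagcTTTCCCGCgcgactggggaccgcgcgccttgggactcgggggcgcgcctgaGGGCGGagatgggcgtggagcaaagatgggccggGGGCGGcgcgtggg
Cdkn2a, start 2, chr4:89282193-89282442, minus strand: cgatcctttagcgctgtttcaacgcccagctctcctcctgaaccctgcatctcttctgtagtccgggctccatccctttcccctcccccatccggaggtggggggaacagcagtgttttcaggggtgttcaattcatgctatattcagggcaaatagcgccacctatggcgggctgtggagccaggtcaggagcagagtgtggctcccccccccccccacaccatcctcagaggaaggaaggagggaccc
Cdkn2b, chr4:89311033-89311282, minus strand: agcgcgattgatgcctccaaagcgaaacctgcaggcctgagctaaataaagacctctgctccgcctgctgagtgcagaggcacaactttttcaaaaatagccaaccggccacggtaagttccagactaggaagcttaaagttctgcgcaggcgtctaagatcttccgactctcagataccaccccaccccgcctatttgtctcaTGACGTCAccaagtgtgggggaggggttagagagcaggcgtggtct
Cdkn1a, start 1, chr17:29090729-29090978, plus strand: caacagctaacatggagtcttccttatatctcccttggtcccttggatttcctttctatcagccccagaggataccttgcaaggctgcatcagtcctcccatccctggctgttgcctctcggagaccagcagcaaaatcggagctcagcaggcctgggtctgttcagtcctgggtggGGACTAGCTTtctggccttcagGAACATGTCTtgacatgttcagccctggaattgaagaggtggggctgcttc
Cdkn1a, start 2, chr17:29093519-29093768, plus strand: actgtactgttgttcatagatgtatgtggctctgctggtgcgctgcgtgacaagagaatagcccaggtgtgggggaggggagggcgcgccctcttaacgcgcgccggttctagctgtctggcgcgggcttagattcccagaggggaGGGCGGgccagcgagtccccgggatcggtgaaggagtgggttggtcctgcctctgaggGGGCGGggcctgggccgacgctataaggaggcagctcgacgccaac
Ccne1, chr7:38107491-38107740, minus strand: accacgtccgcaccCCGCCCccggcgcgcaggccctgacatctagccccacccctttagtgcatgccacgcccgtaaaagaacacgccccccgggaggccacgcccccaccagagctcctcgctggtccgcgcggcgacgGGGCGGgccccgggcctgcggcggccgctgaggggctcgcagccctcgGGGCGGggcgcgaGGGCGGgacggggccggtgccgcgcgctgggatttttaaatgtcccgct

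The windows differed in composition and in matches. The first Cdkn2a window was 78.4% G and C with 40 CpG dinucleotides, the second 60% with 7, and the Cdkn2b window 53.6% with 12, where the median over 32851 windows was 52.4%. An E2F site lay in the first Cdkn2a window, its first base at position -99 from the start, with GC boxes at -48 and -14. E2F sites were found in 1.86% of all windows and GC boxes in 32.7%. The Cdkn2b window held a cyclic AMP response element at -46, a motif found in 1.55% of all windows. The window before the first Cdkn1a start held p53 half-sites at -73 and -51, which 7.13% of all windows hold at least once. The second Cdkn1a window had GC boxes at -104 and -46, and the Ccne1 window had 4, the one nearest the start at -49. None of the 11 windows held a TATA box by these letters, which 12.4% of all windows hold. A match is a description of letters, not of binding.

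**Figure D1:**
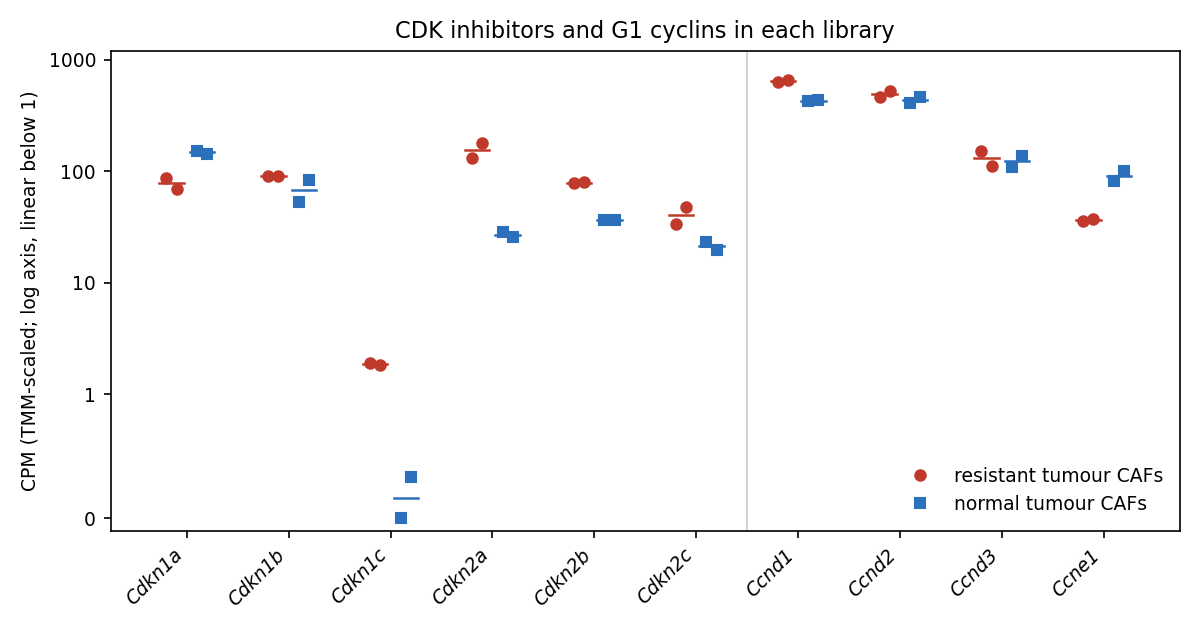
Level of each of the 10 genes in each library, in CPM on a log axis that is linear below 1; circles are resistant and squares normal tumour CAFs, and short lines are group means. Cdkn2a and Cdkn2b sit higher in both resistant libraries, Cdkn1a and Ccne1 higher in both normal libraries, and the points of Ccnd2 and Ccnd3 overlap.

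Among the INK4 genes, Cdkn2a differed most. It encodes the CDK4 and CDK6 inhibitor p16INK4a and, from its other first exon in another reading frame, p19ARF, which stabilises p53 by binding Mdm2. Its reads numbered 345 and 492 in resistant replicates 1 and 2, and 114 and 152 in normal replicates 1 and 2. In CPM, here scaled with TMM factors (trimmed mean of M values), these were 131 and 181 in the resistant and 28.2 and 25.6 in the normal libraries. Both resistant libraries thus lay far above both normal ones. The means were 156 ± 34.9 CPM (SD, n = 2) and 26.9 ± 1.88 CPM, and the log2 fold change was 2.53 ± 0.34 (standard error, SE), a 5.79-fold difference with an edgeR adjusted p of 1.57e-04. Over 15 alternative settings the log2 fold change ran from 2.28 to 2.75 and Cdkn2a passed in each, with adjusted p from 4.11e-11 to 0.00566. The counts are per gene symbol, so the share of p16INK4a and p19ARF transcripts was not measured.

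Cdkn2b encodes p15INK4b, an inhibitor of CDK4 and CDK6 that transforming growth factor beta is known to raise. It stood at 78.4 and 79.6 CPM in the resistant and at 36.9 and 36.9 CPM in the normal libraries. The replicates of each group nearly coincided and the groups did not overlap. The log2 fold change was 1.10 ± 0.35, a 2.14-fold difference (edgeR adjusted p = 0.0317). The call was lost with library totals as scaling (0.96, adjusted p = 0.0629), without normal replicate 1 (adjusted p = 0.378) and without normal replicate 2 (adjusted p = 0.404). Cdkn2a and Cdkn2b lie next to each other on chromosome 4 in RefSeq (GRCm38.p6). The nearest protein-coding gene on the Cdkn2a side is Mtap, an enzyme of methionine salvage, whose value was looked up after the others were known. Mtap stood at 212 and 253 CPM in the resistant and 258 and 242 CPM in the normal libraries, with a log2 fold change of -0.11 ± 0.25 that did not pass the test.

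Cdkn2c encodes p18INK4c, another inhibitor of CDK4 and CDK6. It stood at 33.5 and 48.1 CPM in the resistant and at 23.0 and 19.9 CPM in the normal libraries. The groups did not overlap, but the resistant replicates differed by 0.52 on the log2 scale and the log2 fold change of 0.93 ± 0.41 did not pass the test (edgeR adjusted p = 0.108). Without resistant replicate 1 it was 1.17 and passed (adjusted p = 0.0358).

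In the Cip/Kip family, Cdkn1a fell. It encodes p21, which inhibits cyclin-CDK complexes and also binds the replication clamp PCNA. It stood at 86.4 and 69.4 CPM in the resistant and at 152 and 143 CPM in the normal libraries. Both resistant libraries were below both normal ones. The log2 fold change was -0.92 ± 0.30 (edgeR adjusted p = 0.0358), a level 1.89-fold higher in normal tumour CAFs. The direction held in all 15 alternatives, from -1.08 to -0.77, and with normal replicate 1 or 2 left out the call was lost (adjusted p = 0.344 and 0.331).

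Cdkn1b encodes p27, an inhibitor whose protein is known to be set largely by its degradation. Its levels were 91.3 and 90.3 CPM in the resistant and 52.8 and 83.1 CPM in the normal libraries. The normal replicates differed by 0.66 on the log2 scale, more than the log2 fold change of 0.42 ± 0.35, which did not pass the test (edgeR adjusted p = 0.415) and ran from 0.06 to 0.74 over the alternatives. Cdkn1c encodes p57, the product of an imprinted gene. It had 5 and 5 reads in the resistant libraries and 0 and 2 in the normal ones, and did not pass the filter on low counts. Without that filter its adjusted p was 0.0918 with edgeR, and 0.274 with DESeq2. The ratio of pooled CPM, resistant over normal, was 9.32 with an exact 95% counting interval of 1.99 to 87.4. A count of 0 in normal replicate 1 allows up to 3 reads there, or 0.760 CPM by library total. Intervals and limits of this kind cover counting error only. Reads carried no molecular identifiers.

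Of the G1 cyclins, only Ccne1 passed the test. It encodes cyclin E1, the partner of CDK2 at the entry into S phase and itself a target of E2F. Its reads numbered 94 and 102 in the resistant and 333 and 596 in the normal libraries, or 35.8 and 37.4 against 82.5 and 100.3 CPM. The lower normal library was well above the higher resistant one. The log2 fold change was -1.32 ± 0.35 (edgeR adjusted p = 0.0128), a level 2.50-fold higher in normal tumour CAFs, and ran from -1.52 to -1.21 over the alternatives. With normal replicate 1 or 2 left out the call was lost (adjusted p = 0.0920 and 0.237). Ccne2, which encodes the related cyclin E2, did not pass (-0.44 ± 0.38, edgeR adjusted p = 0.429).

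None of the D cyclins passed the test. Ccnd1, the D cyclin most tied to growth factor signalling in fibroblasts, stood at 632 and 655 CPM in the resistant and 424 and 432 CPM in the normal libraries. The groups were apart and the replicates close. The log2 fold change of 0.59 ± 0.21 did not pass the test (edgeR adjusted p = 0.0572). It passed with limma-voom (adjusted p = 0.0264) and with the replicate number as a block (adjusted p = 0.0451). With each library's trend along read density removed it was 0.23 (adjusted p = 0.380). Ccnd1 is the most densely read of the 10 genes, at 0.410 reads per exonic base.

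Ccnd2 encodes cyclin D2. Its levels were 458 and 526 CPM in the resistant and 410 and 460 CPM in the normal libraries, with a log2 fold change of 0.18 ± 0.22 (edgeR adjusted p = 0.604). Ccnd3 encodes cyclin D3 and stood at 153 and 110 CPM against 110 and 137 CPM. Its log2 fold change was 0.09 ± 0.30 (edgeR adjusted p = 0.853), and its sign turned in 3 of 15 alternatives. For both genes the groups overlapped. Of the 9 tested genes, 5 had group ranges apart with the resistant libraries higher and 2 with them lower. Across all genes tested, 64.7% had ranges apart, 31.9% with the resistant libraries higher and 32.9% with them lower, so ranges apart say little about a single gene here.

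**Figure D2:**
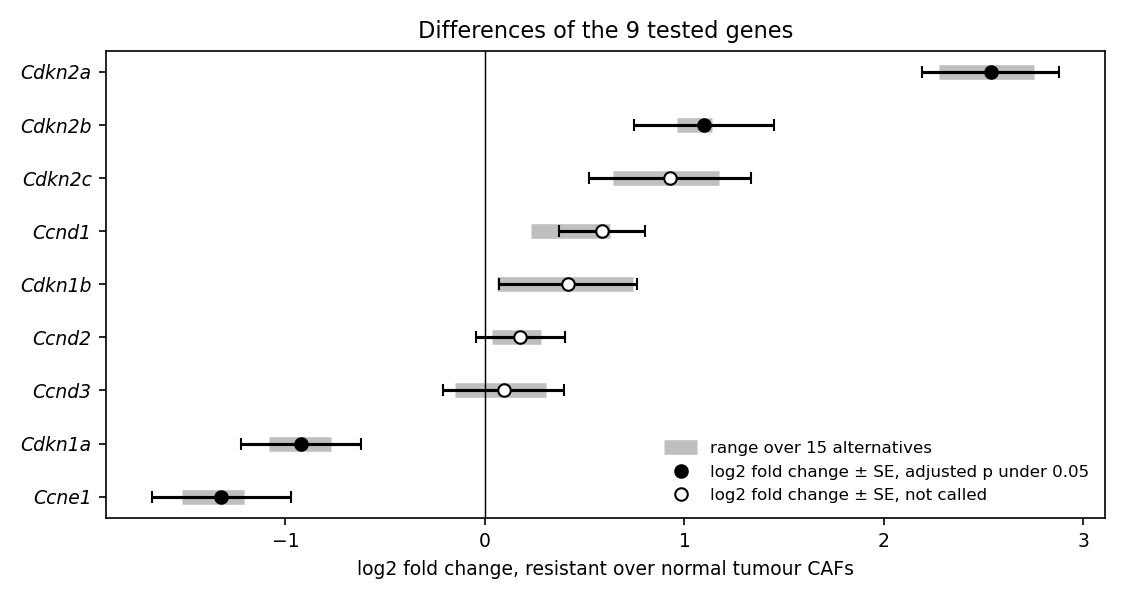
Log2 fold change, resistant over normal tumour CAFs, of the 9 tested genes with the SE as error bar; filled points passed at adjusted p under 0.05, and grey bars span the values under 15 alternative settings. Only the grey bar of Ccnd3 crosses 0, and those of all other tested genes, called or not, stay on 1 side of it.

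The authors' deposited table called 1 of the 10 genes, Cdkn2a, as upregulated, where 8.5% of all its genes were called. Its log2 fold change for Cdkn2a was 2.51 ± 0.37 with an adjusted p of 8.31e-04. In the authors' deposited table the log2 fold changes of Ccne1, Cdkn2b and Cdkn1a were -1.35, 1.07 and -0.95, each with an adjusted p of 1. The statistic in that table is 0 for 9194 genes, among them Cdkn1a and the D cyclins, and none of these 9194 has an absolute log2 fold change above 1.01. The statistics of Cdkn2a, Cdkn2b and Ccne1 were 4.12, 0.19 and -0.93. These are close to the part of each absolute log2 fold change above 1, divided by its SE and signed. The authors thus appear to have tested against an absolute log2 fold change of 1, though the setting is not stated. The edgeR test used here is against 0, so the authors' calls and p-values answer another question.

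Levels of different genes were compared as RPKM, the CPM divided by the exonic length in kilobases, with lengths from GENCODE M21. The exonic length of a gene merges the exons of all its annotated transcripts. It can exceed the length of the transcripts in these cells, which was not measured, and RPKM is then too low. In resistant tumour CAFs, Ccnd1 (137 ± 3.47 RPKM, n = 2) and Cdkn2a (133 ± 29.7 RPKM) were highest and did not differ beyond their spread. Cdkn2b (56.8 ± 0.642 RPKM) and Ccnd2 (52.3 ± 5.15 RPKM) followed, within 1 SD of each other. Cdkn1a (21.9 ± 3.38 RPKM) and Cdkn1b (19.9 ± 0.160 RPKM) overlapped, as did Cdkn2c, Ccnd3 and Ccne1 between 13.7 and 15.2 RPKM.

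The order was another one in normal tumour CAFs. Ccnd1 (91.0 ± 1.17 RPKM) stood alone at the top, followed by Ccnd2 (46.2 ± 3.80 RPKM), Cdkn1a (41.5 ± 1.92 RPKM) and Ccne1 (34.3 ± 4.73 RPKM). Cdkn2b stood at 26.5 ± 0.0282 RPKM and Cdkn2a at 23.0 ± 1.61 RPKM. The replicate values of each of these 6 genes lay apart from those of the next. Cdkn1b (14.9 ± 4.72 RPKM) and Ccnd3 (14.0 ± 2.19 RPKM) overlapped, and Cdkn2c was at 7.99 ± 0.837 RPKM. Cdkn1c was the lowest in both groups, at 0.917 and 0.0825 RPKM. Against all tested genes with a length, Cdkn2a was at percentile 98.0 of the mean RPKM in resistant and 71.5 in normal tumour CAFs, whereas Ccne1 was at 57.7 and 82.3. Ccnd1 was at 98.1 and 97.1.

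The make-up of the 2 families was read from the same scale. Cdkn2a gave 49.5% and 57.2% of the summed RPKM of the 6 inhibitors in the resistant libraries, against 21.2% and 19.1% in the normal libraries. Cdkn1a gave 10.7% and 7.24% against 37.7% and 35.1%. The share of Cdkn2b lay between 21.3% and 24.9% in all 4 libraries on this scale, but by plain read counts it was 18.5% and 17.0% in the resistant and 12.6% and 11.9% in the normal libraries. By plain read counts Cdkn2a gave 31.1% and 38.4% against 9.63% and 8.29%, and Cdkn1a 20.4% and 14.8% against 51.9% and 46.3%. The INK4 genes together summed to 181 and 229 RPKM in the resistant and 59.2 and 55.7 RPKM in the normal libraries. The Cip/Kip genes summed to 45.3 and 40.3 RPKM against 54.5 and 58.6 RPKM. The INK4 sum was thus 3.99 and 5.70 times the Cip/Kip sum in the resistant libraries, and 1.09 and 0.951 times in the normal libraries. By plain read counts it was 1.35 and 1.91 times against 0.430 and 0.364 times. These shares and sums take in all reads of Cdkn2a, with any from p19ARF transcripts, whose part was not measured. With 2 libraries a group an exact two-sided permutation test cannot give a p below 0.33, so no test was made of these shares.

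Ccnd1 was the main D cyclin in every library on this scale. It gave 67.0% and 67.0% of the summed RPKM of the D cyclins in the resistant libraries and 61.7% and 58.7% in the normal libraries. Ccnd2 gave 24.3% and 26.9% against 29.8% and 31.3%, and Ccnd3 6.06% to 9.97% in all libraries. The merged exonic lengths were 4709 bases for Ccnd1, 9409 for Ccnd2 and 8775 for Ccnd3. The RPKM shares of Ccnd2 and Ccnd3 depend on these lengths, which may exceed those of the transcripts present. By plain read counts, with no length used, the mean share of Ccnd1 was 50.8% in resistant tumour CAFs. In normal tumour CAFs it was 43.5%, where Ccnd2 (44.1%) was level with it. The 6 inhibitors summed to 1.13 and 1.30 times the D cyclin RPKM in the resistant and 0.778 and 0.732 times in the normal libraries. This ratio also rests on the lengths, with 1172 bases for Cdkn2a. By plain read counts the 6 inhibitors together had fewer reads than Ccnd1 alone in every library. Ccnd1 had 1661 and 1785 reads in the resistant and 1713 and 2568 in the normal libraries. Whether inhibitors or D cyclins sum to more thus depends on the lengths, as does the size of the gap between the groups.

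**Figure D3:**
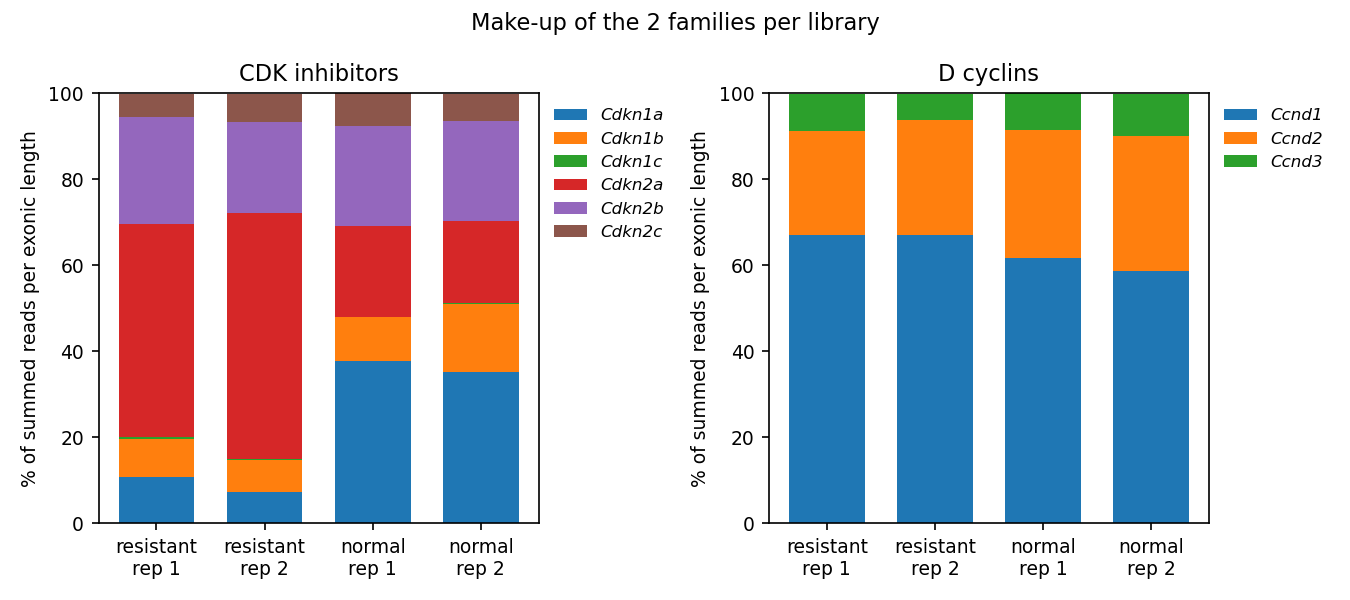
Share of each gene in the summed RPKM of the 6 CDK inhibitors (left) and of the 3 D cyclins (right), in percent, as stacked bars, 1 bar per library. Cdkn2a takes 49.5% and 57.2% of the inhibitor sum in the resistant and 21.2% and 19.1% in the normal libraries, while Ccnd1 leads the D cyclins in each.

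Of 23 tested genes from a list of 24 kinases, pocket proteins, E2F factors and regulators of the G1 to S step, 2 rose and 5 fell in resistant tumour CAFs. That share is close to the 29.4% of all tested genes that passed (15.5% higher, 13.9% lower), so the count is no result about the list. The median log2 fold change was -0.44, where that of all tested genes was -0.00359. Myc, a transcription factor known to drive cell cycle entry, rose from 103 ± 10.7 to 430 ± 7.54 CPM (2.06 ± 0.25, edgeR adjusted p = 6.93e-05). Of the pocket protein genes, which encode the retinoblastoma family, Rb1 fell from 26.8 ± 0.586 to 7.32 ± 2.56 CPM (-1.87 ± 0.46) and Rbl1, which encodes p107, from 90.5 ± 13.7 to 22.0 ± 7.69 CPM (-2.04 ± 0.40). Both passed in all 15 alternatives, and Rbl2, which encodes p130, had a log2 fold change of 0.12 ± 0.41 that did not pass.

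The other genes on that list that fell were the E2F factors E2f2 (-2.06 ± 0.48) and E2f5 (-1.50 ± 0.47), and Cables1 (-2.67 ± 0.66), a CDK-binding adaptor with 4 and 2 reads in the resistant libraries. E2f5 was not called without resistant replicate 2 or normal replicate 2, nor was Cables1 without resistant replicate 2 or normal replicate 1. Cdk7 (0.81 ± 0.27), the CDK-activating kinase named after its value was seen, was the other gene that rose, and it was not called with DESeq2 (adjusted p = 0.0544), with library totals, with no low-count filter or without either normal replicate. The partners of the D cyclins and of cyclin E did not pass: Cdk4 had 0.34 ± 0.24, Cdk6 -1.06 ± 0.49 and Cdk2 -0.65 ± 0.36, all named after their values were seen. Cdk6 had 184 and 53 reads in the resistant libraries and was called lower in 6 of 15 alternatives, namely library totals, no low-count filter, limma-voom, the replicate block, length offsets and without resistant replicate 1. Its log2 fold change ran from -2.25 without resistant replicate 1 to -0.41 without resistant replicate 2. Without resistant replicate 1 the list had 4 genes higher and 9 lower, without resistant replicate 2 it had 2 and 3, and without either normal replicate it had 1 and 4.

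Of 20 genes of S phase and mitosis, 3 fell and none rose by edgeR's quasi-likelihood test, where 13.9% of all tested genes were lower and 15.5% higher. The count lower is close to that share. At an unadjusted p under 0.05 there were 1 higher and 5 lower, and each of DESeq2, the likelihood ratio test and limma-voom called 0 higher and 3 lower. The 3 were Cdc6, which loads the replicative helicase (-1.77 ± 0.38), Foxm1, a transcription factor of mitotic genes (-1.18 ± 0.31), and the mitotic kinase gene Plk1 (-1.02 ± 0.28). The list's median was -0.44, and 17 of the 20 had log2 fold changes below 0. Without normal replicate 1 the count lower was 1, without normal replicate 2 it was 0, and without resistant replicate 2 it was 7. Without resistant replicate 1, 1 rose.

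Of 18 tested p53 targets besides Cdkn1a, 6 fell and 1 rose, where 13.9% of all tested genes were lower and 15.5% higher. The median log2 fold change was -0.58, and the count is given as a description. Gadd45a, a stress protein that slows the cell cycle, fell from 94.0 ± 9.21 to 7.46 ± 1.40 CPM (-3.65 ± 0.42, edgeR adjusted p = 5.08e-05). Phlda3 (-2.54 ± 0.49), an inhibitor of Akt, the nuclease gene Aen (-2.17 ± 0.36) and Ei24 (-1.96 ± 0.40) also fell, and these 4 genes passed in all 15 alternatives. Phlda3 had 112 and 32 reads in the resistant libraries.

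The kinase gene Plk2 (-0.98 ± 0.32) and the RNA-binding protein gene Zmat3 (-1.55 ± 0.51) fell as well. Plk2 was not called without resistant replicate 1, normal replicate 1 or normal replicate 2, nor Zmat3 without resistant replicate 2 or normal replicate 1 or with at least 50 reads required in 2 libraries (adjusted p = 0.0515). The death receptor gene Tnfrsf10b (1.13 ± 0.40), named after its value was seen, was the one that rose, and it did not pass without resistant replicate 1 or either normal replicate, with library totals or with no low-count filter. Without normal replicate 1 the list had 0 higher and 4 lower, and without normal replicate 2 it had 0 and 5. Mdm2, the ubiquitin ligase of p53 and itself a target, had -0.37 ± 0.28, and Trp53, the gene of p53 and no member of the list, had -0.16 ± 0.27. Neither passed the test, and both were named after their values were seen.

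**Figure D4:**
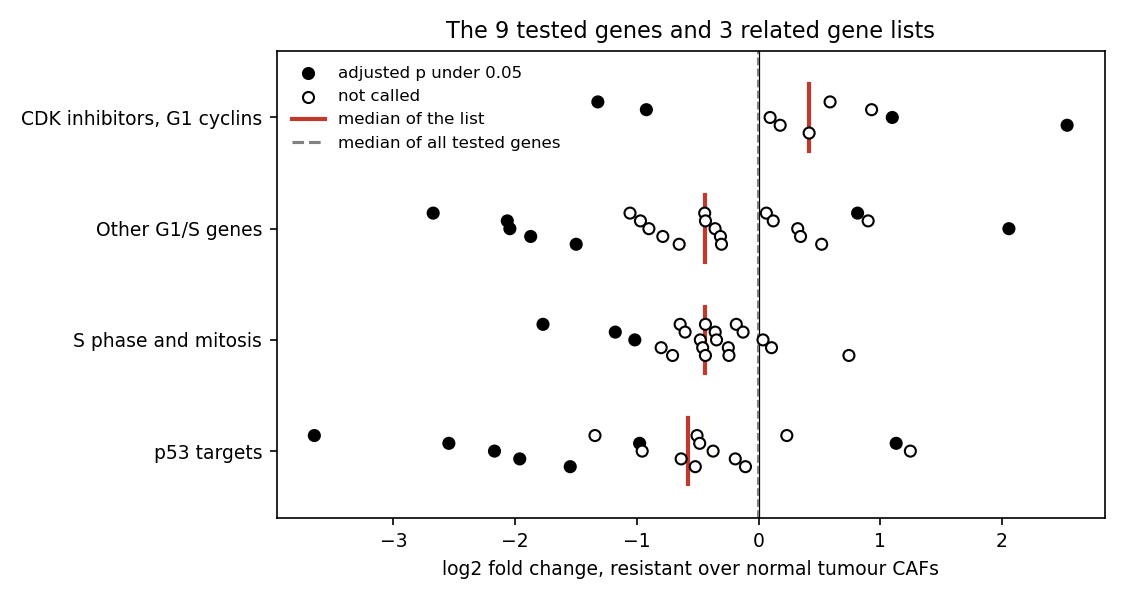
Log2 fold change, resistant over normal tumour CAFs, of each tested gene among the CDK inhibitors and G1 cyclins and in 3 related lists; filled points passed at adjusted p under 0.05, red lines are list medians and the dashed line is the median of all tested genes. The medians of the 3 related lists lie at -0.44, -0.44 and -0.58, with called genes mostly on the left. Of all tested genes 13.9% were called lower and 15.5% higher, and the calls shown are a description of the lists only.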

How the data were processed

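The deposited count table gives, for each gene symbol, unscaled read counts in 4 libraries. Per the submitters' processing notes bcl2fastq 2, TopHat2 2.1.1, Picard 1.62, HTSeq 0.7.2, DESeq2 and build mm9 were used; their settings, strand and annotation are not stated in these sources. The authors divided the counts by size factors to make the normalized signal table, which was not used further. The authors' deposited table gives log2 fold changes, p-values and a score, the test statistic.

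edgeR 4.0.16 (R 4.3.3) was run on the counts: filterByExpr (minimum count 10), TMM, a quasi-likelihood F test with the group as the only term, and Benjamini-Hochberg adjustment over 12001 genes (threshold 0.05). CPM and RPKM use TMM-scaled library sizes. Exonic lengths, used only as lengths, matched 99.4% of tested genes by symbol. The procedure was also run on simulated counts with known changes, which checks the code and not the calls reported here.

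The 10 genes, the lists and the alternatives were chosen with earlier results of these data known. In each related list up to 6 called genes of smallest adjusted p were named; others were named after their values were seen. Alternatives were 3 other scalings, 2 other filters, DESeq2 1.42.0, limma-voom (limma 3.58.1), the likelihood ratio test, the replicate block, each library left out, and offsets taking out a loess trend (span 0.5) per library along read density or exonic length. Where 1 library is left out, the one left in its group is taken to vary as the other group does.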

Additional observations from a re-analysis of the deposited data

How the results depend on the processing

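Log2 fold changes of the 9 tested CDK inhibitors and G1 cyclins kept their sign in all 15 alternatives except that of Ccnd3, which turned in 3. Library totals moved the log2 fold change of the median gene by -0.14 and left 1 of the 10 genes called higher; the related lists then had 1 of the G1 to S genes higher, 5 of the S phase and mitosis genes lower and 0 of the p53 targets higher. With no low-count filter these 3 counts were 1, 5 and 0, and DESeq2 called 1 of the G1 to S genes higher. The replicate number as a block, which the labels do not tie to a shared animal or day (correlation of same-numbered deviations across genes 0.217), called 2257 genes higher and 2267 lower, against 1857 and 1668, with 3 of the 10 genes higher, 9 of the G1 to S genes lower and 5 of the S phase and mitosis genes lower.

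With 1 library left out, genes called ranged from 1078 to 2024 higher and 951 to 2323 lower. Among the 10 genes 1 to 3 were higher and 0 to 2 lower, among G1 to S genes 1 to 4 and 3 to 9, among S phase and mitosis genes 0 to 1 and 0 to 7, and among p53 targets 0 to 1 higher. The cause of these shifts was not tested. By plain read counts the D cyclin shares of Ccnd1, Ccnd2 and Ccnd3 in resistant tumour CAFs were 50.8%, 38.8% and 10.4%. Those in normal tumour CAFs were 43.5%, 44.1% and 12.4%. Cdkn1c, at 0 to 5 reads a library, was left out by the filter and was not called where it was tested.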
